A study of Mus musculus with 5 samples.

Results

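Chemokines are small secreted proteins that direct the movement of leukocytes by binding receptors on their surface. The 10 chemokine genes described here, Ccl2, Ccl5, Ccl7, Ccl9, Cx3cl1, Cxcl1, Cxcl10, Cxcl12, Cxcl14 and Cxcl16, were taken by gene symbol from the 46959 genes of the count files, and all 10 were found. They were chosen by their expression in these melanoma cells, with their levels and earlier results of these libraries known, so the values below describe these libraries and the choice of genes lends them no support. No level was stated as the limit of the list. Its least abundant gene, Ccl9, had a mean of 0.558 CPM (a gene's counts per 1000000 counts of its library, scaled between libraries) in the control cells, while Ccl25, which is not on the list, had 7.998 CPM.

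The families are named for the spacing of conserved cysteines near the start of the mature protein, which are adjacent in CC chemokines and set apart by other residues in CXC and CX3C chemokines. In tumours, chemokines made by the cancer cells are known for attracting monocytes, neutrophils and T cells and for acting on stromal cells. Many chemokine genes are switched on by NF-kB after inflammatory cytokines, and some, such as Cxcl10, by interferons through STAT and IRF factors. Others, such as Cxcl12, are made constitutively by mesenchymal cells.

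The cells were D4M.3A, a melanoma line from a C57BL/6 mouse, at passages 7 to 12, which is known to carry mutant Braf. The controls carried the retroviral vector pBABE (2 libraries), and the other cells a constitutively active form of MNK, caMNK (3 libraries). MNK kinases act downstream of ERK and p38 and add a phosphate to eIF4E, the protein that binds the mRNA cap in translation. The libraries are called biological replicates in the series text, which does not say whether they came from separate cultures. The p-values therefore set the group difference against the spread between these libraries only. The transgene cannot be told apart from any other difference between the lines.

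Total RNA libraries held 27827199 to 48794336 counts. Mknk1, the gene of the introduced kinase, was at 15.2 and 16.7 CPM in pBABE and at 167, 155 and 168 CPM in caMNK. The labelled cell type was checked against pigment cell genes: of 8, 5 stayed under 10 counts in every library, among them Tyr, Tyrp1, Dct and Sox10, so most defining pigment cell markers were absent or nearly so, while Mitf had 135 to 315 counts. T cell markers were at 0 or 1 counts in every library. Of 5 leukocyte markers, 4 stayed under 10 counts, among them Ptprc with 2 to 5, whereas Laptm5 reached 697 to 1150 counts. Among 6 macrophage markers, 4 stayed under 10 counts, and Lyz2 and Adgre1 were at 0 to 2. Csf1r (360 to 519 counts) overlaps Hmgxb3, and Cd68 had 71 to 159 counts. The summed level of the leukocyte markers was 27.9 to 34.6 CPM in pBABE and 20.03 to 25.04 CPM in caMNK, and that of the macrophage markers 13.3 to 14.9 and 13.3 to 18.2 CPM. Of 5 endothelial and 6 fibroblast markers, 3 and 4 were tested. The endothelial markers Pecam1 and Tek had log2 fold changes of 1.07 and 0.82 and did not pass. Nor did the fibroblast markers Dcn (0.38), Pdgfra (−0.24) and Col3a1 (−0.22). Cdh5 and Col1a1 fell (log2 fold changes −1.43 and −0.76, edgeR adjusted p = 0.0141 and 0.0164). Both calls were lost without pBABE replicate 2 (0.113 and 0.103) and without caMNK replicate 1 (0.0661 and 0.0793), and that of Col1a1 also without pBABE replicate 1 (0.18). The summed endothelial markers measured 5.47 to 9.51 CPM in pBABE and 3.57 to 3.69 CPM in caMNK. Most of this sum was Cdh5, at 4.89 and 8.80 CPM in pBABE and 2.26, 2.47 and 2.81 CPM in caMNK. The summed fibroblast markers measured 858 to 910 CPM in pBABE and 613 to 869 CPM in caMNK. The part of these differences in the chemokine values was not tested. In bulk RNA, a change in the number of cells that make a transcript and a change in RNA per cell cannot be told apart.

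Summed over the 10 genes, the chemokine level was 243 and 228 CPM in pBABE and 309, 332 and 314 CPM in caMNK. All 10 genes passed the filter on low counts. In caMNK cells 5 of them rose, Ccl2, Ccl5, Ccl7, Ccl9 and Cx3cl1, and 1 fell, Cxcl14, with an adjusted p of 0.05 or less in edgeR's quasi-likelihood test. The remaining 4, Cxcl1, Cxcl10, Cxcl12 and Cxcl16, did not pass. The same test called 4.42% of the 17026 genes tested higher and 3.52% lower, 7.94% in all. The median log2 fold change was 0.46 over the 10 genes and −0.002 over all genes tested. The 6 called genes were those whose groups did not overlap in TMM-scaled CPM, which held for 44.9% of all genes tested. Since the list was drawn up with these results known, nothing is read from its count. The calls rested on both control libraries: 0 of the 6 passed without pBABE replicate 1 (adjusted p from 0.0907 to 0.307) or without pBABE replicate 2 (0.0743 to 0.318), and these fits called 0.132% and 0.31% of all genes. All 6 had an unadjusted p under 0.05 in each of these fits, as had 13.3% and 14.1% of all genes, and the 6 were picked from a fit that shares these libraries. Without caMNK replicate 1, Ccl5 passed (0.0262) and the other five did not (0.0705 to 0.128), with 1.51% of all genes called. Without caMNK replicate 2 all 6 passed, with 29.6% of all genes, and without caMNK replicate 3 all but Ccl7, with 10.2%. All 6 passed with total counts as library sizes (8.59% of all genes called), TMM without the 50 most abundant genes (7.91%), limma-voom (7.39%), no robust estimation (8.23%), no filter on low counts (10.4%) and the replicate number as a block (15.9%). With the block, caMNK replicate 3 adds nothing to the group difference, as no pBABE library has its number. DESeq2, with 10% of all genes called, kept all but Ccl9. The stricter filter (7.89%) kept the 5 rises and left Cxcl14 untested, and the fit without genes that share reads (6.74%) kept all but Ccl2, which it leaves out.

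**Figure D1:**
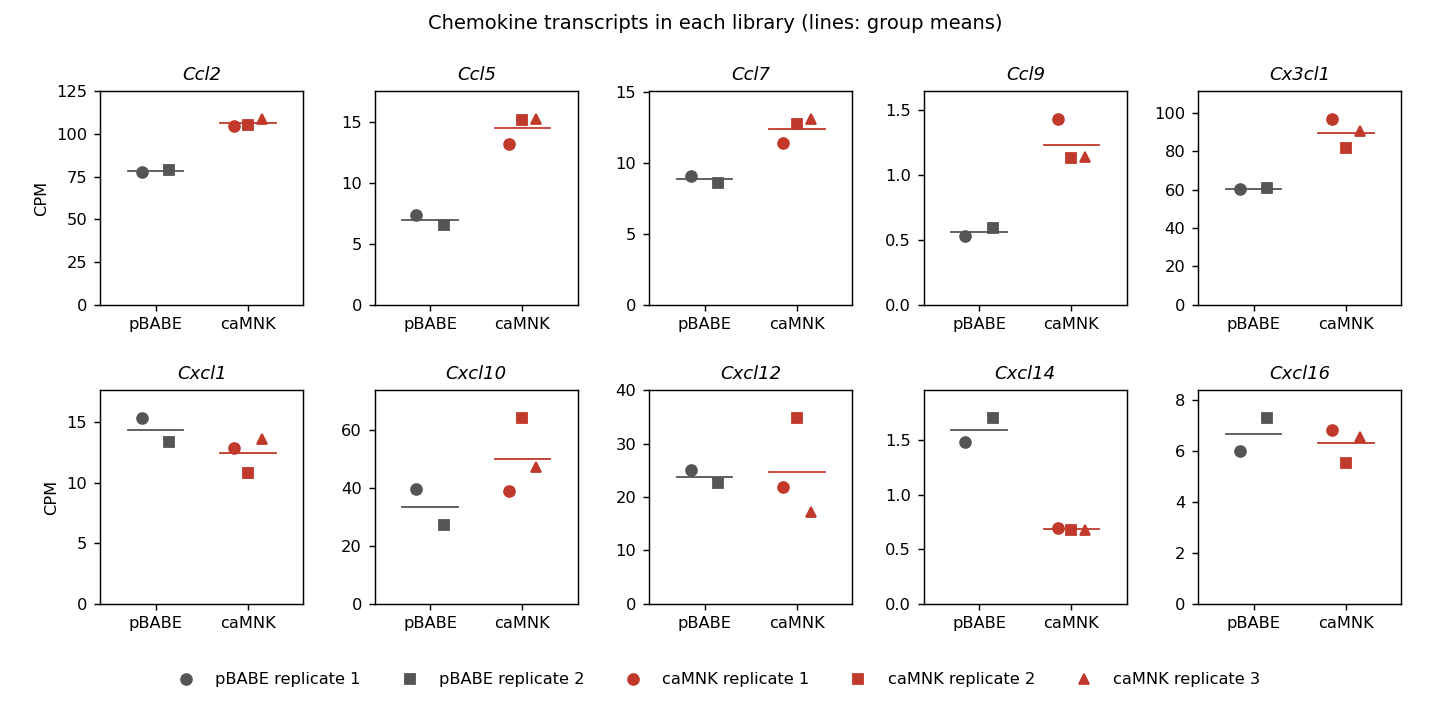
CPM (vertical axes from 0) of each chemokine gene in the 2 pBABE libraries (grey) and 3 caMNK libraries (red). Symbols give the replicate number and lines the group means. The groups are apart for Ccl2, Ccl5, Ccl7, Ccl9, Cx3cl1 and Cxcl14 and overlap for Cxcl1, Cxcl10, Cxcl12 and Cxcl16.

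The CC chemokines Ccl2 and Ccl7 both attract monocytes through the receptor CCR2, and their genes are neighbours, 8258 bases apart on chromosome 11 of mm10. Ccl2 (82035571 to 82037453, plus strand) had 3249 and 2551 counts in pBABE and 3011, 5116 and 4025 in caMNK. Scaled to library size, this was 77.9 and 79.0 CPM against 105, 105 and 109 CPM. The pBABE libraries lay close together, as did the caMNK libraries, and every caMNK library was higher. Ccl2 rose 1.35-fold (log2 fold change 0.44, SE 0.081, edgeR adjusted p = 0.0166). Its whole span lies inside Gm17268 on the opposite strand, and the counting did not separate strands. Outside the span of Ccl2, Gm17268 had at most 1 count in any library over 8456 bases, so nearly all reads of this pair fell within Ccl2.

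Ccl7 (82045712 to 82047525, plus strand) was the less abundant neighbour, with 380 and 278 counts in pBABE and 327, 621 and 485 in caMNK. Its levels were 9.11 and 8.61 CPM in pBABE and 11.4, 12.8 and 13.1 CPM in caMNK, again without overlap. Ccl7 rose 1.40-fold (log2 fold change 0.49, SE 0.119, edgeR adjusted p = 0.0421). This call lay near the threshold and was also lost without caMNK replicate 3 (adjusted p = 0.0533). The log2 fold changes of the neighbours, 0.44 and 0.49, differed by less than either SE.

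Ccl5 and Ccl9 form a second pair on chromosome 11, on the minus strand and 42400 bases apart. Ccl5 attracts T cells, monocytes and eosinophils through receptors that include CCR1 and CCR3. Ccl5 (83525778 to 83530518) had 308 and 212 counts in pBABE and 379, 737 and 564 in caMNK, or 7.38 and 6.57 CPM against 13.2, 15.2 and 15.2 CPM. The lowest caMNK library was well above the highest pBABE library. Ccl5 rose 2.08-fold (log2 fold change 1.06, SE 0.127, edgeR adjusted p = 0.00524). No other gene of the 10 had a lower adjusted p. It was also the member still called without caMNK replicate 1 (adjusted p = 0.0262).

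Ccl9, a ligand of CCR1 that attracts myeloid cells, lay at the lower end of detection. Ccl9 (83572919 to 83578636) had 22 and 19 counts in pBABE and 41, 55 and 42 in caMNK. With exact 95% Poisson intervals, which cover counting error only, its level was 0.527 CPM (0.331 to 0.799) and 0.588 CPM (0.354 to 0.919) in pBABE. In caMNK it was 1.43 CPM (1.03 to 1.94), 1.13 CPM (0.852 to 1.47) and 1.13 CPM (0.818 to 1.53). The values of the groups did not overlap, but the intervals of pBABE replicate 2 did with those of caMNK replicates 2 and 3. Ccl9 rose 2.19-fold (log2 fold change 1.13, SE 0.264, edgeR adjusted p = 0.0376), and by DESeq2 it did not pass (adjusted p = 0.0626). Among 9388 other genes at a mean log2 CPM of at least 3, with symbols of clones, predicted genes or pseudogenes left out, the closest to it over the 5 libraries were the non-coding RNA gene Snhg3 and the matrix gene Npnt. Their root mean square distances from Ccl9 in centred log2 CPM were 0.0824 and 0.0969. With 5 libraries, this likeness is a description only.

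Cx3cl1 and Cxcl16 are the chemokines made as transmembrane proteins, which can hold cells that carry the receptors CX3CR1 and CXCR6 or be shed by ADAM10 and ADAM17 as soluble attractants. Cx3cl1 (chromosome 8, 94772009 to 94782427, plus strand) had 2505 and 1956 counts in pBABE and 2776, 3970 and 3355 in caMNK. Its levels were 60.1 and 60.6 CPM in pBABE and 96.7, 81.6 and 90.6 CPM in caMNK. The caMNK libraries varied more than the controls and were all higher. Cx3cl1 rose 1.49-fold (log2 fold change 0.57, SE 0.097, edgeR adjusted p = 0.0134).

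Cxcl16 (chromosome 11, 70453983 to 70459984, minus strand) had 250 and 235 counts in pBABE and 195, 269 and 242 in caMNK. It measured 5.99 and 7.28 CPM in pBABE and 6.79, 5.53 and 6.54 CPM in caMNK, so that the groups overlapped. The log2 fold change was −0.08 (SE 0.154, edgeR adjusted p = 0.792). Zmynd15 overlaps its first 552 bases on the opposite strand and had 56 to 73 counts per library, and the reads in common cannot be told apart. The 2 membrane-bound chemokines thus had log2 fold changes of 0.57 and −0.08. The difference between them was not tested.

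Cxcl1, known for attracting neutrophils through CXCR2, and Cxcl10, which attracts activated T cells and NK cells through CXCR3, lie on chromosome 5. Both are known targets of NF-kB, and Cxcl10 is a classical interferon-induced gene. The 250 bases before their annotated starts are shown, as RefSeq gives them for GRCm38.p6, because these were the listed genes whose windows held the letters of the NF-kB motif. Capitals mark matches to GGGANNNNCC, for NF-kB, and to GAAANNGAAA, for the interferon-stimulated response element (ISRE), on either strand.
Cxcl10 (chr5:92348890-92349139, minus strand): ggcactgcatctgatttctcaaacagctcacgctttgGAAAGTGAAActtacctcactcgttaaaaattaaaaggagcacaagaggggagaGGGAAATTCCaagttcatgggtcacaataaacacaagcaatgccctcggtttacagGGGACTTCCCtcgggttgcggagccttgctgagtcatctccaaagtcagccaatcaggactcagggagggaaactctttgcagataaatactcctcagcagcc
Cxcl1 (chr5:90890995-90891244, plus strand): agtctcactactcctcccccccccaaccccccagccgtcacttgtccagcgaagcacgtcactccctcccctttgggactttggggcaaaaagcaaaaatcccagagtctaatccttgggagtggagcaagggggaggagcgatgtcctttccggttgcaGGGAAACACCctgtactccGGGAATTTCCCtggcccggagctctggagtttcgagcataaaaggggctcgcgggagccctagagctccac

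The Cxcl10 window held 2 NF-kB matches, from 159 to 150 and from 103 to 94 bases before the start, and 1 ISRE match from 213 to 204 bases before it. The AP-1 letters TGANTCA lay once between them and the start, from 74 to 68 bases before it. The Cxcl1 window held 1 NF-kB match from 90 to 81 bases before the start and a second stretch in which matches on the 2 strands overlap, from 71 to 61. Windows of 6 of the 10 genes were in the table used. Ccl2, Ccl5, Ccl7 and Cxcl16 were not in it. The Cxcl14 window held the ISRE letters, and those of Ccl9, Cx3cl1 and Cxcl12 held neither motif. Of 32851 windows of the same length, 17.6% held the NF-kB letters, 2.98% the ISRE letters, 6.75% the AP-1 letters and 7.02% TTCNNNGAA, the interferon gamma activated site (GAS), which Cxcl14 also held. The TATA box letters TATAAA, searched on the strand of the gene alone, were in 7.59% of windows. They lay from 92 to 87 bases before the start in Ccl9 and from 6 to 1 in Cx3cl1. The Cx3cl1 window, 94771930 to 94772179, runs past the first base of the gene span given above, 94772009. The Cxcl1 window, which ends at 90891244, likewise runs past the first base of the Cxcl1 span, 90891241. The Ccl9 window also held the AP-1 letters. A match is a description of the letters and no evidence of binding.

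**Figure D2:**
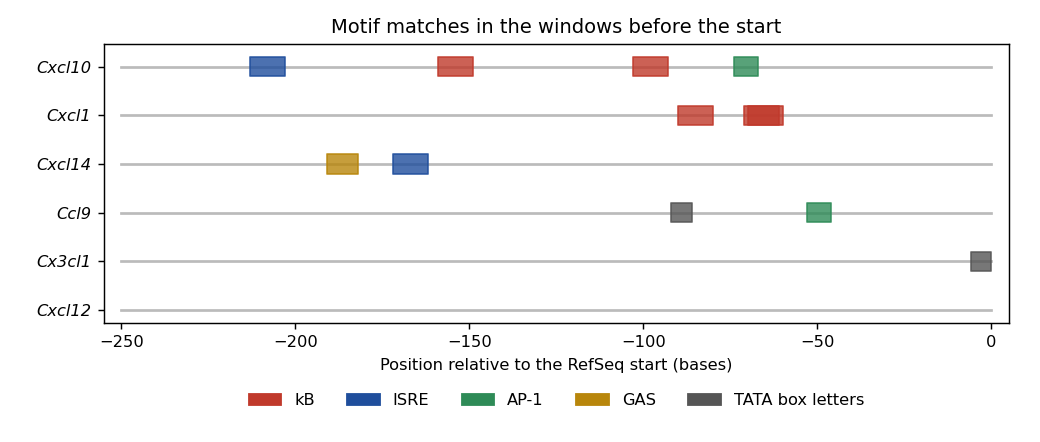
Positions of motif matches in the 250 bases before the RefSeq start (horizontal axis, in bases) of 6 chemokine genes. Boxes span the matched letters, and darker red marks overlapping matches on the 2 strands. The NF-kB (kB) letters are found in Cxcl10 and Cxcl1, the ISRE letters in Cxcl10 and Cxcl14, and Cxcl12 has no match.

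Cxcl1 (90891241 to 90893115) had 639 and 432 counts in pBABE and 369, 523 and 503 in caMNK. Its levels were 15.3 and 13.4 CPM in pBABE and 12.9, 10.8 and 13.6 CPM in caMNK. The groups overlapped through caMNK replicate 3, and caMNK replicate 2 was lowest. The log2 fold change was −0.22 (SE 0.134, edgeR adjusted p = 0.352). It was −0.12 without pBABE replicate 1 or without caMNK replicate 2, and −0.31 without pBABE replicate 2.

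Cxcl10 (92346638 to 92348889) had 1660 and 883 counts in pBABE and 1116, 3122 and 1749 in caMNK. Its levels were 39.8 and 27.3 CPM in pBABE and 38.9, 64.2 and 47.2 CPM in caMNK. Libraries differed within both groups: pBABE replicate 1 was 1.46 times pBABE replicate 2, and 8.35% of all genes tested had a larger ratio there. Replicate 2 of caMNK was 1.65 times replicate 1, a ratio exceeded by 13.1% of genes between the highest and lowest caMNK library. The groups overlapped, with pBABE replicate 1 above caMNK replicate 1. Scaled by total counts alone, a choice made after seeing the data, pBABE replicate 1 was at 38.8 and caMNK replicate 1 at 40.1 CPM, and the groups did not overlap. The log2 fold change of 0.58 (SE 0.221) did not pass by edgeR (adjusted p = 0.144). With no filter on low counts it did (4.82e-05), and likewise by DESeq2 (0.0303). Leaving out caMNK replicate 2 gave 0.36, leaving out pBABE replicate 2 gave 0.33, and 0.86 was obtained without pBABE replicate 1. The ADP-ribosyltransferase gene Art3 spans Cxcl10 on the opposite strand. Outside Cxcl10, Art3 had 23 to 203 counts per library over 80550 bases, a density that amounts to 0.643 to 5.68 counts over a stretch as long as Cxcl10.

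Interferon signalling and target genes were set beside Cxcl10 as a list of 26 genes, all tested. Of these, 5 rose (Stat2, Mx2, Rsad2, Socs1 and Tyk2) and 0 fell, and 21 did not pass, with a median log2 fold change of 0.33, beside 4.42% of all genes called higher and 3.52% lower. By DESeq2 10 rose and 0 fell, and by limma-voom 3 rose and 0 fell, where these tools called 10% and 7.39% of all genes in either direction. At an unadjusted edgeR p under 0.05, 14 of the list were higher and 0 lower, as were 13.8% and 12.1% of all genes (25.9% in all). Rsad2, which encodes the antiviral protein viperin, measured 42.1 and 30.8 CPM in pBABE and 50.6, 77.1 and 58.6 CPM in caMNK (log2 fold change 0.77, edgeR adjusted p = 0.047). Mx2, an antiviral GTPase gene, measured 14.5 and 11.2 CPM in pBABE and 18.8, 30.3 and 21.99 CPM in caMNK (0.88, adjusted p = 0.0381). Both had their highest value in caMNK replicate 2 and their lowest in pBABE replicate 2, as did Cxcl10. This held for 15 of the 26 genes of the list and for 6.08% of all genes tested. Among the 10 chemokines, Cxcl10 alone had these 2 extremes.

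For the interferon transcription factor gene Stat2 the log2 fold change was 0.77 (adjusted p = 0.0129), and Socs1, a feedback inhibitor of JAK kinases, rose from 7.29 ± 0.541 CPM (SD, n = 2) to 14.5 ± 2.46 CPM (SD, n = 3; log2 fold change 0.99, edgeR adjusted p = 0.0114). Tyk2, the gene of a JAK kinase, rose with a log2 fold change of 0.69 (edgeR adjusted p = 0.0397). It shares reads with 1700084C06Rik, which had 4843 counts over all libraries against 2951 for Tyk2, and the reads in common cannot be told apart. None of these 5 genes passed without pBABE replicate 1 (adjusted p from 0.0905 to 0.277) or pBABE replicate 2 (0.118 to 0.325). Without caMNK replicate 1, Stat2 and Socs1 passed (0.0463 and 0.0402), while Mx2 (0.0545), Rsad2 (0.066) and Tyk2 (0.14) did not. Rsad2 also lost its call without caMNK replicate 3 (0.0573), by limma-voom (0.0504), once genes that share reads were left out (0.0539) and with the stricter filter (0.0501). Tyk2 also lost its call by limma-voom (0.056).

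**Figure D3:**
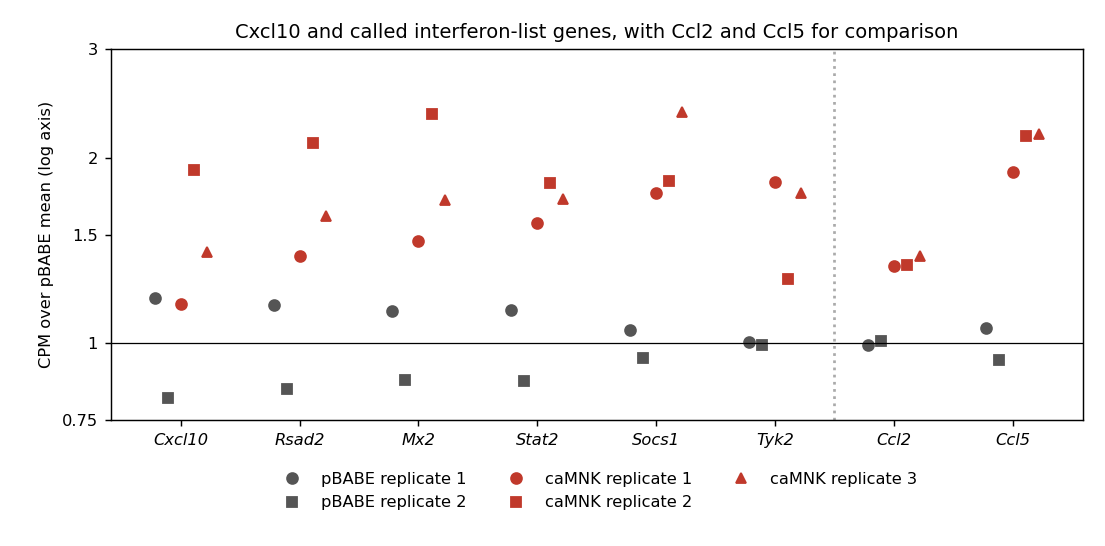
CPM of each library divided by the mean of the pBABE libraries (log axis) for Cxcl10 and the 5 called genes of the interferon list, with Ccl2 and Ccl5 at the right. In Cxcl10, Rsad2, Mx2 and Stat2, caMNK replicate 2 is highest and pBABE replicate 2 lowest, whereas the 3 caMNK libraries lie close together in Ccl2.

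Of the 15 NF-kB subunit, inhibitor and kinase genes, 0 rose and 0 fell by edgeR, with a median log2 fold change of 0.01. At an unadjusted edgeR p under 0.05, 2 were higher and 1 lower, beside 13.8% and 12.1% of all genes. DESeq2 called 1 of the 15 higher, Map3k14, and limma-voom called 0. Of all genes, these tools called 10% and 7.39% in either direction, and edgeR 7.94%. The kinase gene Map3k14, which acts in the non-canonical pathway and is named after its value was seen, came nearest, with a log2 fold change of 0.43 (adjusted p = 0.0505).

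Cxcl12 and Cxcl14 are chemokines made constitutively in many tissues. Cxcl12 retains stem cells and leukocytes through CXCR4 and is also bound by the scavenging receptor ACKR3. Cxcl12 (chromosome 6, 117168535 to 117181367, plus strand) had 1044 and 729 counts in pBABE and 628, 1692 and 636 in caMNK. It measured 25.03 and 22.6 CPM in pBABE and 21.9, 34.8 and 17.2 CPM in caMNK. Replicates 1 and 3 of caMNK were below both controls and replicate 2 above both. Its highest caMNK library was 2.03 times its lowest, and 5.87% of all genes tested had a larger ratio. The log2 fold change was 0.05 (SE 0.252, edgeR adjusted p = 0.918). Without caMNK replicate 2 it was −0.30 (SE 0.109, adjusted p = 0.0522), without pBABE replicate 2 it was −0.02, and limma-voom gave 0.00.

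Cxcl14 (chromosome 13, 56288643 to 56296551, minus strand), whose product acts on monocyte-lineage and dendritic cells, had 62 and 55 counts in pBABE and 20, 33 and 25 in caMNK. With exact 95% Poisson intervals, it measured 1.49 CPM (1.14 to 1.91) and 1.70 CPM (1.28 to 2.22) in pBABE. In caMNK it measured 0.697 CPM (0.426 to 1.08), 0.679 CPM (0.467 to 0.953) and 0.675 CPM (0.437 to 0.997). The intervals of the groups did not overlap. Cxcl14 fell 2.32-fold (log2 fold change −1.22, SE 0.224, edgeR adjusted p = 0.0165). By the same measure as for Ccl9, the closest genes over the 5 libraries were the pyruvate dehydrogenase kinase gene Pdk1 and Mir5114, at root mean square distances of 0.114 and 0.123. Here too the likeness is a description only, and reads of any gene that overlaps Mir5114 would be counted for it as well.

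Levels of different genes were compared per kilobase of annotated exons. Ccl2 was highest, at 68.5 and 69.4 CPM per kb in pBABE and 92.2 to 95.5 in caMNK. In pBABE it was followed by Cx3cl1 with a mean of 15.3, Cxcl10 with 14.9, Ccl7 with 11.1, Cxcl1 with 7.65, Ccl5 with 7.27, Cxcl12 with 2.91, Cxcl16 with 2.20, Cxcl14 with 0.873 and Ccl9 with 0.183 CPM per kb. The ranges over the 2 pBABE libraries overlapped for the neighbours Cx3cl1 and Cxcl10 and for Cxcl1 and Ccl5. In caMNK, Ccl5 stood above Cxcl1, with 13.8 to 15.9 against 5.74 to 7.25 CPM per kb, and its range overlapped that of Ccl7. The means of Ccl9 and Cxcl14, 0.404 and 0.374 CPM per kb in caMNK, also had overlapping ranges there. The counts include reads from introns, so the order depends on the length used. For Cxcl1 and Cxcl10 the annotated exons cover 100% of the gene span, against 20.2% for Ccl5 and 37.7% for Cx3cl1. Their exon length thus takes in introns, which lowers their values per kb against genes whose introns are left out. By the longest transcript in pBABE, Cxcl10 (24.8) lay above Cx3cl1 (18.2), and Cxcl1 (15.1) above Ccl5 (13.1 CPM per kb). With the deposited length, the span of the gene with introns, 4 of the 10 genes kept their place in the pBABE order. With the longest protein-coding transcript 5 did. By the deposited length, Ccl5 lay below Cxcl1 in both groups (1.47 against 7.65 CPM per kb in pBABE, 3.06 against 6.61 in caMNK). By the longest transcript, Ccl5 lay above Ccl7 in caMNK, with means of 27.3 and 15.5 CPM per kb. In pBABE, Ccl2 was first, Cxcl16 eighth, Cxcl14 ninth and Ccl9 last with each of the 3 lengths, and in caMNK Ccl9 came before Cxcl14 with each.

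**Figure D4:**
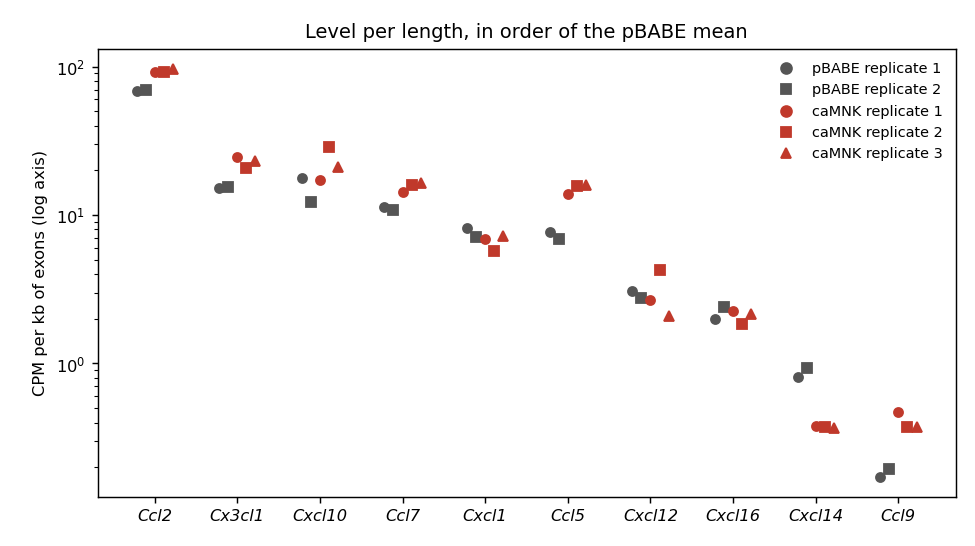
CPM per kilobase of exons (log axis) in each library, with the genes in order of their pBABE mean. Ccl2 lies above all other genes in every library. By this length, though not by the others used, Ccl5 moves from the level of Cxcl1 in pBABE to that of Ccl7 in caMNK.

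Of the 31 other mouse chemokine genes in the files, 15 had no count in any library, and 25 stayed under 10 counts in all libraries. Only 4 were abundant enough to test, and edgeR, DESeq2 and limma-voom called 0 of them. Of all genes, these tools called 7.94%, 10% and 7.39% in either direction. At an unadjusted edgeR p under 0.05, 2 of the 4 were higher and 0 lower, beside 13.8% and 12.1% of all genes. Ccl25, a thymic and intestinal attractant, measured 7.998 ± 1.17 CPM (SD, n = 2) in pBABE and 10.9 ± 0.503 CPM (SD, n = 3) in caMNK (log2 fold change 0.45, edgeR adjusted p = 0.075). Its span overlaps the far more abundant Elavl1 by 204 bases. The mucosal chemokine gene Ccl28 measured 1.55 ± 0.179 and 1.66 ± 0.258 CPM (adjusted p = 0.806). Ccl4, an attractant of monocytes and T cells, had 14 and 9 counts in pBABE and 21, 32 and 28 in caMNK (log2 fold change 1.19, SE 0.314, adjusted p = 0.0543). Ccl20, a ligand of CCR6, had 14 and 14 counts in pBABE and 5, 12 and 7 in caMNK (log2 fold change −0.86, SE 0.394, adjusted p = 0.211). Cxcl9 and Cxcl5 reached 10 counts in caMNK replicate 2 alone and were not tested. Cxcl9 had 2 and 0 counts in pBABE and 2, 21 and 4 in caMNK, and Cxcl5 had 3 and 2 against 4, 12 and 6.

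Of 24 chemokine receptor genes in the files, 11 were tested, 3 rose and 0 fell, with a median log2 fold change of 0.13. Of all genes tested, 4.42% were called higher and 3.52% lower. DESeq2 and limma-voom also called 3 receptor genes higher and 0 lower, the number with an unadjusted edgeR p under 0.05. These tools called 10% and 7.39% of all genes in either direction. At that unadjusted p, 13.8% of all genes were higher and 12.1% lower. Both receptors of Cxcl12 were among the rises. Cxcr4 measured 22.4 and 24.6 CPM in pBABE and 44.003, 39.9 and 44.3 CPM in caMNK (log2 fold change 0.86, edgeR adjusted p = 0.00506). Ackr3 measured 5.87 and 6.63 CPM in pBABE and 10.4, 10.4 and 9.21 CPM in caMNK (log2 fold change 0.68, SE 0.130, adjusted p = 0.0193). Neither gene's groups overlapped, as held for 44.9% of all genes tested, and those of Cxcl12 did overlap. Both receptors were named because they were called in these data, so nothing is read from their lack of overlap. Ccr1, a receptor of Ccl5, Ccl7 and Ccl9, had 8 and 11 counts in pBABE and 28, 44 and 35 in caMNK (log2 fold change 1.85, SE 0.339, adjusted p = 0.0164).

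None of the 3 receptor genes passed without pBABE replicate 1 (adjusted p from 0.112 to 0.263) or pBABE replicate 2 (0.061 to 0.125). Cxcr4 passed without caMNK replicate 1 (0.0372), and Ccr1 (0.0661) and Ackr3 (0.09) did not. Other receptors of the listed chemokines had few or no counts. Ccr2, the receptor of Ccl2 and Ccl7, had 0 counts in every library, Cxcr2 had 0 to 2 and Cxcr3 had 22 to 28. Cx3cr1 overlaps Wdr48, Gorasp1 and Csrnp1, and Cxcr6 overlaps Fyco1, so the counts of Cx3cr1 and Cxcr6 cannot be assigned to the receptors. Ccr9, Ccr10, Cxcr5 and Ackr4, which were also tested, share reads with other genes as well. For Cxcr5 this gene is Bcl9l, with 15448 counts over all libraries against 252. The median over the tested receptors includes all of these genes.

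**Figure D5:**
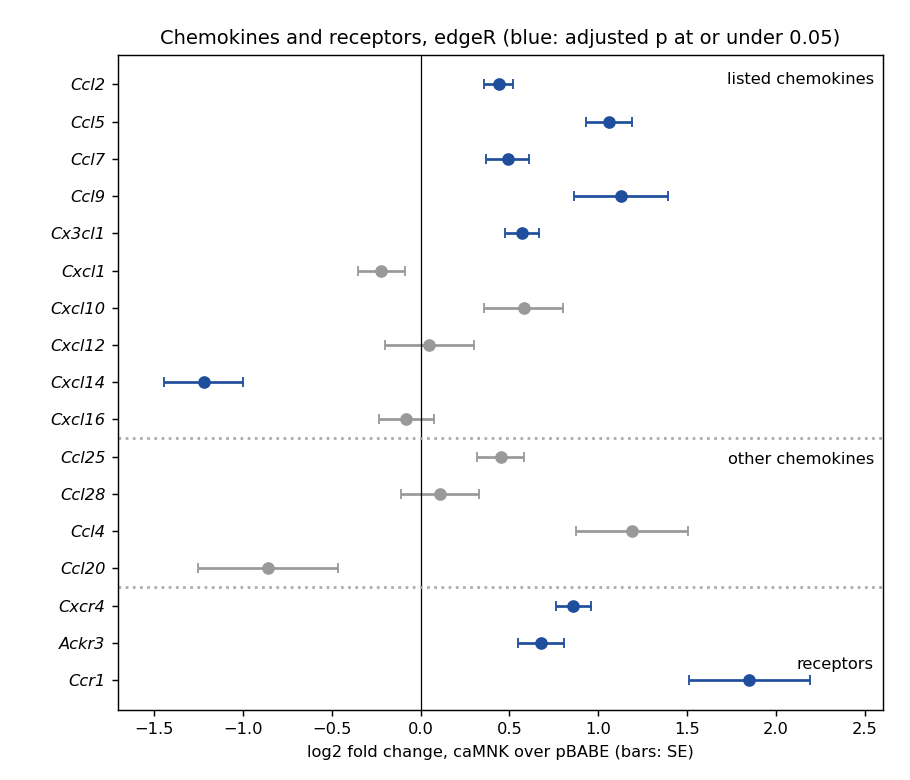
Log2 fold changes of caMNK over pBABE with their standard errors (horizontal axis) for the 10 listed chemokines, the 4 other chemokines tested and the 3 called receptors. Blue marks an adjusted p of 0.05 or less in edgeR. Of the listed chemokines, 5 lie to the right and Cxcl14 to the left among the blue points.

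Of 11 genes for proteases known to shed or trim chemokines, 8 were tested. By edgeR 3 rose and 0 fell, with a median log2 fold change of 0.43. Of all genes tested, 4.42% were called higher and 3.52% lower. At an unadjusted edgeR p under 0.05, 4 of the list were higher and 3 lower, beside 13.8% and 12.1% of all genes. DESeq2 called 3 higher and 2 lower, Adam10 and Mmp2, and limma-voom 3 and 0. These tools called 10% and 7.39% of all genes in either direction. The sheddase gene of Cx3cl1 and Cxcl16, Adam10, measured 305 and 299 CPM in pBABE and 228, 267 and 205 CPM in caMNK (log2 fold change −0.37, edgeR adjusted p = 0.0834). Adam17, which shares reads with Iah1, measured 105 and 97.3 CPM in pBABE and 89.5, 89.2 and 81.2 CPM in caMNK (adjusted p = 0.156). The rises were in the matrix metalloproteinase genes Mmp9 (log2 fold change 2.88, edgeR adjusted p = 0.00465), Mmp3 (1.47, 0.0047) and Mmp12 (1.17, 0.0299). Of these, Mmp12 shares reads with Mmp1b, which had 309 counts over all libraries against 211 for Mmp12. The reads in common cannot be told apart. Without pBABE replicate 1 none of the 3 passed (0.0738 to 0.249). Mmp12 also failed without pBABE replicate 2 (0.205) and without caMNK replicate 1 (0.106).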

How the data were processed

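Raw read counts per gene were deposited for each library by the authors, with a length for every gene. The submitters' processing notes name build mm10 and the tools featureCounts 1.5.3, STAR 2.5.3, Trimmomatic 0.32, DESeq2, SAMtools 0.1.19 and FastQC 0.11.2, without the annotation release or the counting settings. Of 27839 genes with introns in GENCODE M21 (the same build), 21709 had a deposited length equal to the gene span and 0 the summed exons, so the counts include intronic reads, and reads of overlapping genes are counted for each.

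Groups came from the sample titles. edgeR 4.0.16 (R 4.3.3; filterByExpr, TMM, robust quasi-likelihood F test, group as the only term) was fitted to all 5 libraries, with Benjamini-Hochberg adjustment over 17026 genes and a threshold of 0.05. With F as the test statistic, each SE is the absolute log2 fold change over its square root, CPM was TMM-scaled, and log2 CPM used a prior count of 2. Chi-square per degree of freedom was 6.35 or more for every pair of libraries, so no library was a copy. Within caMNK it was 22.3 and 49.1 for replicate 2 against replicates 1 and 3, and 9 for replicates 1 and 3. Between the groups it was 32.1 to 58.9. Replicate 2 of caMNK also had the most counts, 48794336. Alternatives were other scalings, filters and tools (DESeq2 1.42.0, limma 3.58.1), a replicate block and leaving out each library. The genes and lists were chosen with earlier results of these data known. All 10 listed genes are named, as are called genes of the other lists, the 4 most abundant other chemokines, and the 2 genes closest to the listed genes of largest rise and fall. Untested chemokines that reached 10 counts in a library are named as well.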

Additional observations from a re-analysis of the deposited data

How the results depend on the processing

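The direction of Ccl2, Ccl5, Ccl7, Ccl9, Cx3cl1, Cxcl1, Cxcl10 and Cxcl14 was the same under every alternative that gave a value. Total-count scaling, TMM without the 50 most abundant genes, limma-voom, no robust estimation, no filter and the replicate block each kept the 6 calls. DESeq2 kept 5 (Ccl9 log2 fold change 1.14, adjusted p = 0.0626) and added Cxcl10 (0.58, 0.0303), as did no filter (0.57, 4.82e-05). The stricter filter removed Cxcl14, leaving 0 listed genes called lower, and without genes that share reads Ccl2, Cxcl10 and Cxcl16 had no value.

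Over the fits that leave out 1 library, 0 to 5 listed genes were called higher and 0 to 1 lower. Log2 fold changes ran from 0.42 to 0.45 for Ccl2, 0.97 to 1.14 for Ccl5, 0.44 to 0.55 for Ccl7, 1.03 to 1.20 for Ccl9, 0.52 to 0.63 for Cx3cl1, −1.33 to −1.12 for Cxcl14, −0.31 to −0.12 for Cxcl1, 0.33 to 0.86 for Cxcl10, −0.30 to 0.26 for Cxcl12 and −0.23 to 0.06 for Cxcl16. Cxcl12 was −0.02 without pBABE replicate 2 and −0.30 without caMNK replicate 2, and Cxcl16 was 0.06 and 0.01. A lone pBABE library is assumed to vary like the caMNK libraries.

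Of all genes, 753 rose and 599 fell. These counts were 11 to 2325 and 12 to 2617 over the fits without 1 library, 1591 and 1330 without a filter, 412 and 305 without genes that share reads, and 1477 and 1231 with the replicate block. No label pairs the replicate numbers, and the deviations of same-numbered libraries correlated at −0.0549 and −0.0252 over genes. The order per length kept 4 places with the deposited length and 5 with the longest protein-coding transcript, an alternative chosen after seeing the data. Depth limits Ccl9 and Cxcl14 most.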
